A study of Mus musculus with 12 samples.

Results

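The 7 genes described here encode the cyclin-dependent kinase (CDK) inhibitors of mouse: Cdkn1a, Cdkn1b and Cdkn1c of the Cip/Kip family and Cdkn2a, Cdkn2b, Cdkn2c and Cdkn2d of the Ink4 family. They were taken by symbol from a table of raw read counts for 23337 gene symbols, and all 7 had enough reads to be tested among 12406 genes. The counts came from RNA sequencing of NU1, a line of normal mouse urothelial cells that had become immortal by serial passage. There were 4 groups of 3 libraries. Proliferating cells grew in complete medium with epidermal growth factor (EGF). Quiescent cells had been grown to confluence and then given rosiglitazone at 1 µM, an agonist of the nuclear receptor PPAR gamma, and erlotinib at 0.5 µM, an inhibitor of the EGF receptor kinase, and were labelled differentiation day 7. Each state was measured with a control hairpin (shNT) and with a hairpin against Stag2 (sh4), both delivered by lentivirus; Stag2 encodes a subunit of the cohesin ring. The groups therefore shared the cell line and the presence of a hairpin. Experiments 5, 7 and 9 each gave 1 library per group, so the p-values rest on the spread between experiments in this line. The main fit did not pair libraries by experiment, so this spread includes shifts that the libraries of 1 experiment shared. A fit with the experiment number as a replicate block, which removes such shifts, is given as an alternative. The knockdown rests on 1 hairpin, and within the change from proliferation to quiescence the parts of confluence, the 2 drugs and time cannot be told apart.

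CDK inhibitors are small proteins that hold cells in the first gap phase of the cell cycle. Cip/Kip proteins bind complexes of cyclins with CDK2, CDK4 or CDK6, whereas Ink4 proteins bind CDK4 and CDK6 alone and keep the D-type cyclins off them. When these kinases are held inactive, the retinoblastoma protein and its relatives stay unphosphorylated and bound to E2F factors, and the genes of DNA replication stay off. Much of the control of p27 and part of that of p21 acts on protein breakdown, which RNA counts do not show. In the urothelium, loss of the locus that holds Cdkn2a and Cdkn2b is common in human bladder cancer.

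Library totals ran from 14524429 to 21987539 counts, and no 2 replicates held identical values. Stag2 served as the check of the labels. With shNT, proliferating cells held 139, 145 and 113 CPM of it (CPM, a count divided by its library's total, after TMM normalisation, and put on the usual common scale) in experiments 5, 7 and 9, against 33.3, 24.9 and 24.6 CPM with sh4. In quiescent cells it was 128, 126 and 107 CPM against 9.43, 15.3 and 11.7 CPM. The groups did not overlap, and Stag2 fell in both states (log2 fold change -2.26, adjusted p = 0.00121, and -3.32, adjusted p = 0.000034, by edgeR's quasi-likelihood test with Benjamini-Hochberg adjustment over all tested genes, which is the test behind every adjusted p below unless another is named). Of 12 urothelial markers, the epithelial genes Krt8, Krt18, Krt20, Epcam, Cdh1 and Gata3 were expressed, while Trp63 had 0 counts in all 12 libraries, Upk3a had at most 1 count, and Upk1a, Upk1b, Upk2 and Krt5 reached at most 3.94, 2.23, 1.45 and 6.60 CPM. Genes that define other cell types were low: the summed level of 6 fibroblast markers was 0.345 to 2.22 CPM (Col1a2, Col3a1 and Lum at 0), that of 5 endothelial markers was at most 0.762 CPM, and that of 4 smooth muscle markers at most 0.408 CPM. The immune markers in the table summed to 1.61 to 9.72 CPM, with Cd3e at 0.

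**Figure D1:**
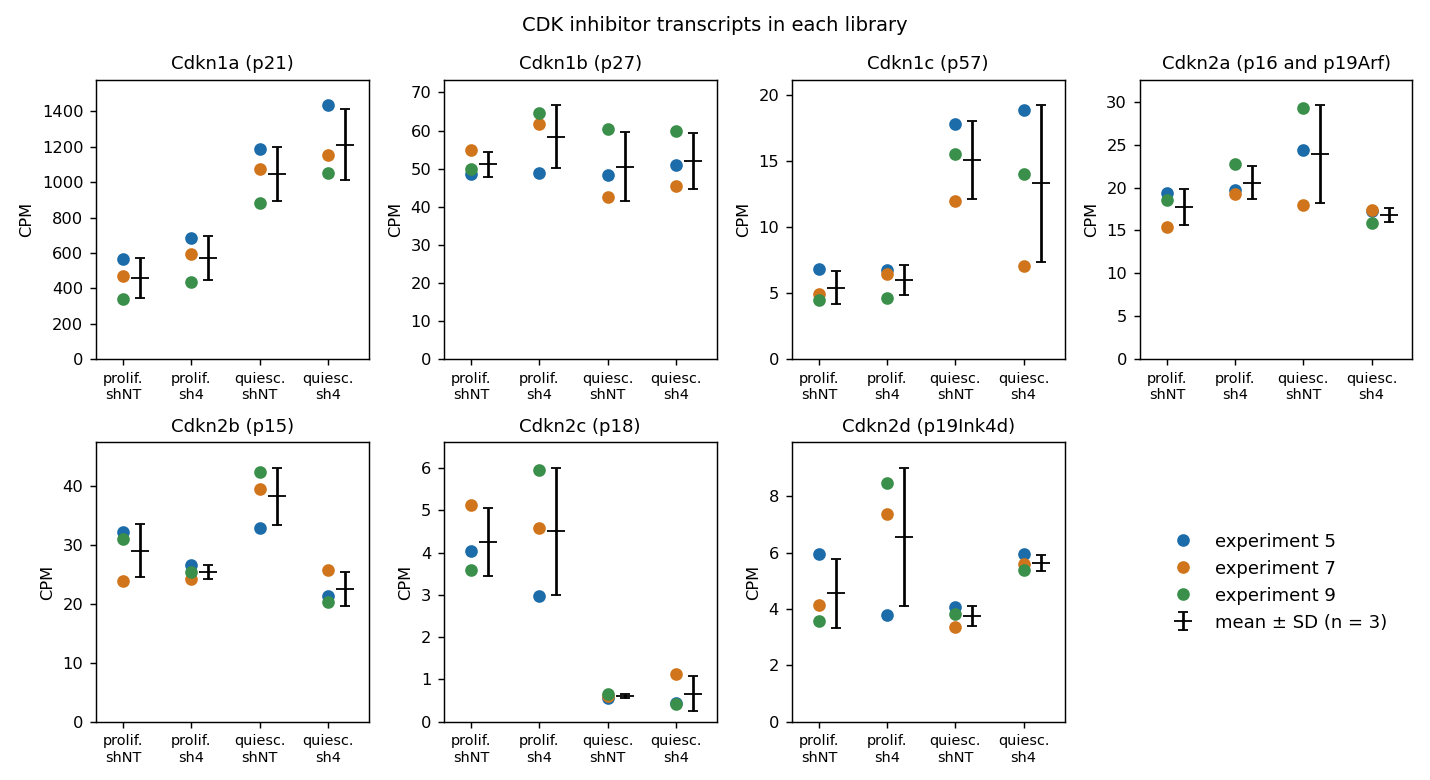
Level of each inhibitor gene in every library, in CPM on linear axes that start at 0, by group (prolif., proliferating; quiesc., quiescent) and experiment, with the mean and SD of 3 libraries. Cdkn1a and Cdkn1c are higher and Cdkn2c is lower in the quiescent libraries, Cdkn1b lies between 42.6 and 64.6 CPM, and Cdkn2b is lower with sh4 than with shNT in quiescent cells.

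The first comparison asked how the inhibitor genes differed between quiescent and proliferating control cells. Cdkn1a and Cdkn1c rose, Cdkn2c fell, and the other 4 did not pass the threshold of 0.05 on the adjusted p. Across all tested genes, 8.33% rose and 11.7% fell in this comparison, so 2 of 7 rising and 1 of 7 falling stand beside a broad change of the transcriptome. The median log2 fold change of the 7 genes was 0.40, against 0.00 for all tested genes. In quiescent knockdown cells against proliferating knockdown cells the same 3 genes passed in the same directions, where 7.59% of tested genes rose and 10.8% fell, and the median of the 7 was -0.18. In bulk RNA, a larger share of cells expressing a gene and more RNA in each cell cannot be told apart.

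Cdkn1a encodes p21, the inhibitor best known as a target of the p53 protein and as a product of differentiating epithelia. The gene lies at chr17:29090976-29100727 on the plus strand of GRCm38. Its level in proliferating control cells was 565, 468 and 337 CPM in experiments 5, 7 and 9, and in quiescent control cells it was 1185, 1073 and 881 CPM. All quiescent values lay above all proliferating ones, and within each state experiment 5 was highest and experiment 9 lowest. Cdkn1a rose 2.29-fold (log2 fold change 1.20, SE 0.23, adjusted p = 0.00421), by 1.07, 1.20 and 1.39 on the log2 scale within experiments 5, 7 and 9. With the Stag2 hairpin the levels were 682, 596 and 437 CPM in proliferating cells and 1436, 1151 and 1051 CPM in quiescent cells. The order of the experiments was again 5, 7, 9, as in 4 of 4 groups, and the rise was 2.12-fold (log2 fold change 1.08, SE 0.23, adjusted p = 0.00753). Both rises passed the threshold under 19 of 19 alternative settings.

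Cdkn1b encodes p27, an inhibitor that accumulates as protein in resting cells of many tissues. It lies at chr6:134920401-134925513 on the plus strand. Its level was 48.5, 54.8 and 49.9 CPM in proliferating control cells and 48.4, 42.6 and 60.4 CPM in quiescent control cells. The groups overlapped, with a log2 fold change of -0.02 and a 95% interval of -0.37 to 0.33 that is not adjusted for the number of genes (adjusted p = 0.952). With sh4 the levels were 48.9, 61.6 and 64.6 CPM in proliferating and 51.0, 45.3 and 59.9 CPM in quiescent cells. The highest of the 12 values was 1.52 times the lowest, the smallest such ratio among the 7 genes, and no comparison of Cdkn1b passed the threshold.

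Cdkn1c encodes p57, the Cip/Kip member that is imprinted and expressed from the maternal allele. It lies at chr7:143458339-143461050 on the minus strand. Proliferating control cells had 6.79, 4.91 and 4.43 CPM and quiescent control cells 17.8, 11.9 and 15.5 CPM. No quiescent value was as low as a proliferating one, and Cdkn1c rose 2.80-fold (log2 fold change 1.49, SE 0.34, adjusted p = 0.0108). With sh4 the values were 6.76, 6.43 and 4.65 CPM in proliferating cells and 18.8, 7.04 and 14.0 CPM in quiescent cells. The quiescent library of experiment 7 was close to the proliferating ones, with a difference of 0.13 on the log2 scale there, against 1.46 and 1.57 in experiments 5 and 9. The rise in knockdown cells was 2.23-fold (log2 fold change 1.16, SE 0.33, adjusted p = 0.0340).

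The call of Cdkn1c in knockdown cells was kept in 13 of 19 alternatives. With the replicate block its log2 fold change was 1.10 (adjusted p = 0.00854), and by the DESeq2 Wald test it was 1.17 (adjusted p = 0.00661). In the edgeR fits with a library left out, all without the block, the call depended on single libraries. It was lost on leaving out the proliferating sh4 library of experiment 5 (adjusted p = 0.0536), 7 (0.0800) or 9 (0.112), or the quiescent sh4 library of experiment 5 (0.139) or 9 (0.0944), with log2 fold changes of 0.82 to 1.26 in these 5 cases. A fit to only the 6 libraries of the comparison also lost it (log2 fold change 1.17, adjusted p = 0.0664). Without the quiescent sh4 library of experiment 7 the log2 fold change of Cdkn1c was 1.47 (adjusted p = 0.00597). The rise in control cells kept its call under 19 of 19 alternatives.

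**Figure D2:**
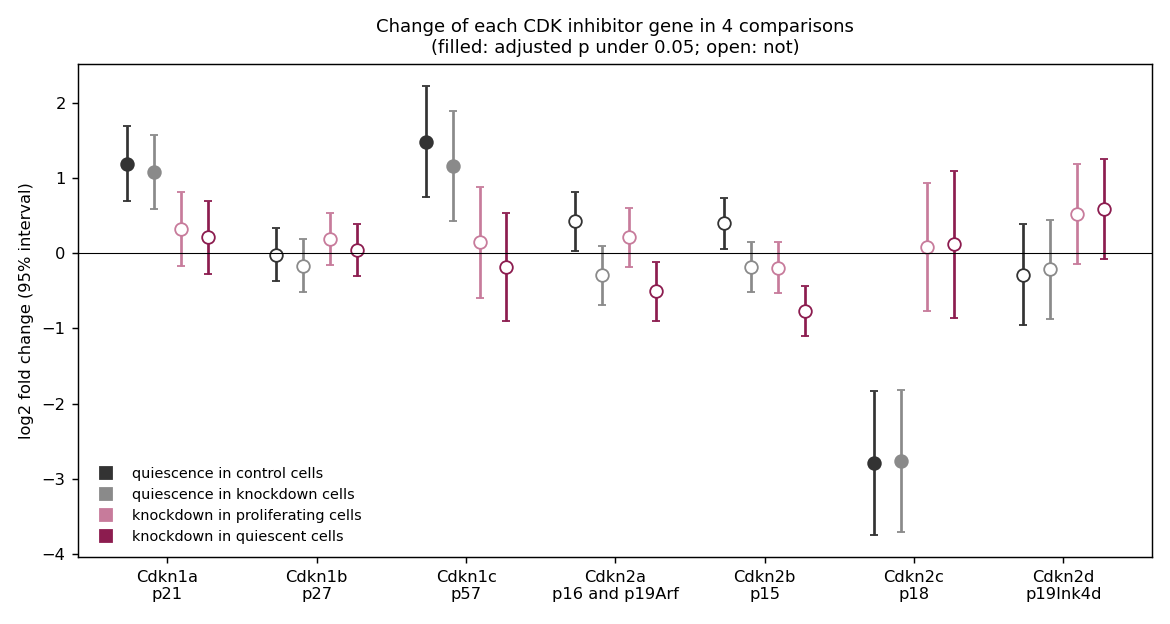
Log2 fold change of each inhibitor gene in the 2 comparisons of quiescence with proliferation and the 2 of sh4 with shNT, with unadjusted 95% intervals; filled circles mark an adjusted p under 0.05. The filled circles are Cdkn1a and Cdkn1c above 0 and Cdkn2c below it, all for quiescence, and the lowest value after knockdown is that of Cdkn2b in quiescent cells, at -0.77.

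Cdkn2c encodes p18, an Ink4 protein known for limiting the division of precursor cells. It lies at chr4:109660876-109667189 on the minus strand. Its level was 4.04, 5.14 and 3.58 CPM in proliferating control cells, from 72, 89 and 63 counts. In quiescent control cells it was 0.552, 0.612 and 0.656 CPM, from 8, 10 and 11 counts, so counting error is a large part of these values: the exact 95% Poisson interval of the lowest was 0.238 to 1.09 CPM. Even the upper ends of the intervals, at most 1.17 CPM, lay below every proliferating value. Cdkn2c fell 6.93-fold (log2 fold change -2.79, SE 0.44, adjusted p = 0.00150).

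With sh4, Cdkn2c stood at 2.97, 4.59 and 5.97 CPM in proliferating cells and at 0.453, 1.13 and 0.410 CPM (10, 19 and 7 counts) in quiescent cells. The groups did not overlap, and it fell 6.77-fold (log2 fold change -2.76, SE 0.43, adjusted p = 0.00189). Both falls kept their call in 18 of 18 alternatives, while a filter at a mean of 50 counts left the gene untested. The differences within experiments ranged from -3.53 to -1.91 on the log2 scale with sh4 and from -2.85 to -2.26 with shNT.

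Cdkn2d encodes p19Ink4d, which acts on CDK4 and CDK6 and whose level moves with the cell cycle in many cells. It lies at chr9:21288410-21291407 on the minus strand. Its level was 5.95, 4.16 and 3.58 CPM in proliferating and 4.07, 3.37 and 3.82 CPM in quiescent control cells. These ranges overlapped, and the log2 fold change was -0.28 (95% interval -0.96 to 0.39, adjusted p = 0.553). With sh4 the values were 3.79, 7.39 and 8.49 CPM and 5.94, 5.61 and 5.39 CPM, with a log2 fold change of -0.22 (adjusted p = 0.659). The interval of Cdkn2d in control cells did not reach that of Cdkn2c, a gene of the same family (-3.75 to -1.84).

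Cdkn2a and Cdkn2b are neighbours on chromosome 4, at chr4:89274471-89294653 and chr4:89306299-89311039, both on the minus strand and 11.67 kb apart. Cdkn2b encodes p15, an Ink4 protein known as a target of transforming growth factor beta. Cdkn2a has 2 start sites and encodes 2 unrelated proteins, the CDK inhibitor p16 and p19Arf, which stabilises p53; the count table has a single entry for the gene, so its values are the sum of both transcripts. Their promoters are shown because the 2 genes had lower values together after knockdown in quiescent cells, as described below, and that of Cdkn2c because it had the largest change. The windows run from 250 bases before to 50 after the annotated start, 5′ to 3′ on the gene's strand, and come from RefSeq on GRCm38.p6, which held windows for 6 of the 7 genes. Capitals mark matches to an E2F motif (TTTCCCGC, TTTGGCGC, TTTCGCGC or TTTGCCGC) or a cell-cycle homology region, CHR (TTTGAA or TTTAAA), on either strand.
Cdkn2a, upstream start (p19Arf transcript), chr4:89294570-89294869: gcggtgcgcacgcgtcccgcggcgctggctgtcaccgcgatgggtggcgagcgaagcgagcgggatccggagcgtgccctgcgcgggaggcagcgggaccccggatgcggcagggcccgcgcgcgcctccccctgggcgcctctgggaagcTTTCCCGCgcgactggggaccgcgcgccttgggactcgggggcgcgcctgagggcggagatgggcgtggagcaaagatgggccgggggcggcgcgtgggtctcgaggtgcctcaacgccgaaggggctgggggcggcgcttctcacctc
Cdkn2a, downstream start (p16 transcript), chr4:89282143-89282442: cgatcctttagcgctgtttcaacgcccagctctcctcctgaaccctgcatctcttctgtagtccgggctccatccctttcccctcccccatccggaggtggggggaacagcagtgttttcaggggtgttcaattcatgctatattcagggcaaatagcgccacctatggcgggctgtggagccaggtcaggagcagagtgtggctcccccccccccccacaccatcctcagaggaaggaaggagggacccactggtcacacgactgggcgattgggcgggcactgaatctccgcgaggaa
Cdkn2b, chr4:89310983-89311282: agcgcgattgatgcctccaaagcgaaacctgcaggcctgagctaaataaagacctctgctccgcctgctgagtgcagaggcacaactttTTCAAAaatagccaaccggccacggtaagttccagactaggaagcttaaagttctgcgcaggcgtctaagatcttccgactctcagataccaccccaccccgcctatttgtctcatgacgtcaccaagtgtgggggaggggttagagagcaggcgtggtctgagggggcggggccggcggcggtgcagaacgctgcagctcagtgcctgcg
Cdkn2c, upstream start, chr4:109666707-109667006: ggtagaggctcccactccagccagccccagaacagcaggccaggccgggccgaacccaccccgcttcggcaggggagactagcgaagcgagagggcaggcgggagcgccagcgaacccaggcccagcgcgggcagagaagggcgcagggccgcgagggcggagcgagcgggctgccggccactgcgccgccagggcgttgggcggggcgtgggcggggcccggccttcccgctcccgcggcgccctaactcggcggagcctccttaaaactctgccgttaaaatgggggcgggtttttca

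The upstream Cdkn2a window held the E2F letters TTTCCCGC at position -99 from the start, and it was the only window of these genes with a listed E2F motif, which 2.26% of 32851 promoter windows held. The Cdkn2b window held a CHR on the reverse strand, read as TTCAAA above, at -161, and Cdkn1b, not shown, held TTTAAA at -15; 27.6% of all windows held a CHR. Neither motif was found in the windows of Cdkn2c, Cdkn1a or Cdkn2d. The box GGGCGG, bound by Sp1, was in 7 of the 9 windows, with 4 copies in the Cdkn2c window shown, and in 35.7% of all windows. The letters GTAAACA of FoxO factors were in none of the 9 windows and in 3.65% of all. Overlap between motifs was not removed, and these are matches of letters only.

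With quiescence in control cells both neighbours had positive log2 fold changes that did not pass the threshold. Cdkn2a was at 19.4, 15.4 and 18.5 CPM in proliferating and 24.4, 17.9 and 29.3 CPM in quiescent cells, with overlapping ranges (log2 fold change 0.43, SE 0.18, adjusted p = 0.116). Without the quiescent shNT library of experiment 7, the lowest of its group, the log2 fold change of Cdkn2a was 0.61 (adjusted p = 0.0306). Cdkn2b was at 32.3, 24.0 and 31.0 CPM in proliferating and 33.0, 39.5 and 42.5 CPM in quiescent cells. Its groups did not overlap, but experiment 5 differed by only 0.03 on the log2 scale (log2 fold change 0.40, SE 0.15, adjusted p = 0.0888). In knockdown cells the log2 fold changes with quiescence were -0.29 for Cdkn2a (adjusted p = 0.282) and -0.18 for Cdkn2b (adjusted p = 0.448).

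The next comparison asked what the Stag2 hairpin changed in quiescent cells. None of the 7 genes passed the threshold, at which 0.435% of tested genes were called, while 2 of 7 had an unadjusted p under 0.05, as did 12% of tested genes. Cdkn2b stood at 33.0, 39.5 and 42.5 CPM with shNT in experiments 5, 7 and 9 and at 21.4, 25.8 and 20.3 CPM with sh4. All sh4 values lay below all shNT values. The log2 fold change was -0.77, with -0.62, -0.61 and -1.06 within the experiments (SE 0.15, adjusted p = 0.0605). The 2 genes with an unadjusted p under 0.05 were Cdkn2b and Cdkn2a.

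Cdkn2b passed under 2 of 19 alternatives. With the experiment number as a replicate block its log2 fold change was -0.77 (adjusted p = 0.0290), in a fit that called 3.55% of tested genes. By the DESeq2 Wald test it was -0.77 (adjusted p = 0.000761), where 3.13% of tested genes were called. Over all alternatives the adjusted p of Cdkn2b ran from 0.000761 to 0.282 and its log2 fold change from -0.88 to -0.69. No fit with a library left out called Cdkn2b, and all of these fits were run without the replicate block. The highest p came without the quiescent sh4 library of experiment 9, where the gene was lowest. Leaving out a library while keeping the block was not tried.

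Cdkn2a was at 24.4, 17.9 and 29.3 CPM with shNT and at 17.3, 17.4 and 15.8 CPM with sh4 in quiescent cells. The groups did not overlap, but in experiment 7 they were nearly equal (-0.05 on the log2 scale, against -0.50 and -0.89 in experiments 5 and 9). The log2 fold change of Cdkn2a was -0.51 (SE 0.18, adjusted p = 0.281) and it passed under none of 19 alternatives, with adjusted p from 0.109 to 0.599.

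Cdkn2d went the other way, with sh4 at 5.94, 5.61 and 5.39 CPM and shNT at 4.07, 3.37 and 3.82 CPM. Its groups did not overlap either, and the log2 fold change was 0.59 (SE 0.31, 95% interval -0.08 to 1.26, adjusted p = 0.492). The share of all tested genes whose groups did not overlap was not counted for any comparison, so such separations add nothing to the tests. For the other genes the intervals included 0: the log2 fold change was 0.21 for Cdkn1a (-0.28 to 0.70), 0.05 for Cdkn1b (-0.31 to 0.40), -0.18 for Cdkn1c (-0.90 to 0.54) and 0.12 for Cdkn2c (-0.86 to 1.10). Cdkn1a was higher with sh4 in 3 of 3 experiments, by 0.28, 0.10 and 0.26. The interval of Cdkn2c was the widest of these, with few counts behind it.

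In proliferating cells the Stag2 hairpin called none of the 7 genes, with 0.0242% of tested genes called, and no member had an unadjusted p under 0.05 (1.84% of tested genes did). The log2 fold changes ran from -0.19 for Cdkn2b to 0.52 for Cdkn2d, with a median of 0.19 against 0.00 for all tested genes. Cdkn2d differed most between experiments, by -0.64, 0.81 and 1.22 in experiments 5, 7 and 9. Cdkn1a was higher with sh4 in each experiment, by 0.27, 0.35 and 0.37 (log2 fold change 0.32, adjusted p = 1.00), and it was the 1 member with an unadjusted p under 0.05 once the replicate block was added, where 5.2% of tested genes had one, at an adjusted p of 0.948. Cdkn2a was at 19.8, 19.2 and 22.8 CPM and Cdkn2b at 26.7, 24.3 and 25.5 CPM with sh4, both overlapping the control libraries.

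**Figure D3:**
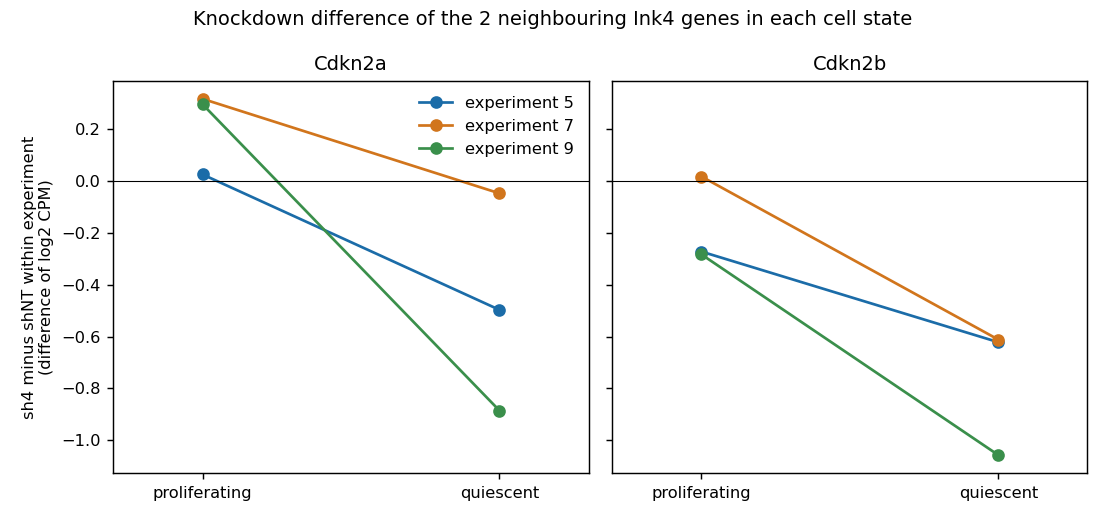
Difference of log2 CPM between sh4 and shNT within each experiment for Cdkn2a and Cdkn2b, in proliferating and in quiescent cells; lines join the states of 1 experiment. Every line runs downwards: Cdkn2a goes from 0.03, 0.32 and 0.30 to -0.50, -0.05 and -0.89, and Cdkn2b from -0.27, 0.02 and -0.28 to -0.62, -0.61 and -1.06.

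The interaction subtracts the log2 effect of sh4 in proliferating cells from its effect in quiescent ones, and tests whether the effect of sh4 differed between the states. It called 0 of the 7 genes and 0 of 12406 genes (0%) by edgeR's quasi-likelihood test, with 219 genes at an unadjusted p under 0.05, and 6 genes but no inhibitor gene by DESeq2. The 2 members with an unadjusted p under 0.05 were again the neighbours. For Cdkn2a the interaction was -0.72 (SE 0.25, unadjusted p = 0.0158, adjusted p = 1.00 by edgeR), negative in 3 of 3 experiments at -0.52, -0.37 and -1.18, although the underlying knockdown difference was near 0 in experiment 5 of proliferating cells (0.03) and in experiment 7 of quiescent cells (-0.05). For Cdkn2b it was -0.58 (SE 0.22, unadjusted p = 0.0213, adjusted p = 1.00 by edgeR), also negative in 3 of 3 at -0.35, -0.63 and -0.78. The plot of knockdown differences of the 2 genes shows these within-experiment values. The contrasts share libraries, so the low values of both genes in the quiescent sh4 libraries enter several of them, and these contrasts are not independent of each other. The level of Stag2 left with sh4 also differed between the states. With sh4, Stag2 was at 27.6 ± 4.96 CPM in proliferating and 12.1 ± 2.95 CPM in quiescent cells (log2 fold change -1.19, adjusted p = 0.00208 by edgeR). The interaction of Stag2 itself, which tests whether the depth of knockdown differed between the states, was -1.05 and did not pass. Its adjusted p was 0.526 by edgeR with the replicate block and 0.230 by the DESeq2 Wald test.

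Levels can be set side by side between genes only per length, here as CPM per kilobase of annotated exon. In proliferating control cells Cdkn1a was far above the rest at 129 ± 32.2 CPM per kilobase (SD, n = 3). It was followed by Cdkn2b at 20.9 ± 3.20, Cdkn2a at 15.2 ± 1.79 and Cdkn1b at 11.2 ± 0.720 CPM per kilobase, with no overlap between neighbours in that order; per length of the longest coding transcript, Cdkn2b (17.3 to 23.2) and Cdkn2a (17.2 to 21.7) overlapped. Cdkn2d at 2.90 ± 0.784 and Cdkn1c at 2.64 ± 0.611 overlapped, and Cdkn2c came last at 1.58 ± 0.298 CPM per kilobase. In quiescent control cells the order was Cdkn1a at 294 ± 43.3, Cdkn2b at 27.6 ± 3.49, Cdkn2a at 20.4 ± 4.89, Cdkn1b at 11.1 ± 1.99, Cdkn1c at 7.40 ± 1.45, Cdkn2d at 2.38 ± 0.227 and Cdkn2c at 0.226 ± 0.0194 CPM per kilobase. Cdkn1c had thus passed Cdkn2d without overlap, and Cdkn2b and Cdkn2a overlapped.

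With sh4 the levels in proliferating cells kept the order of the proliferating controls, with Cdkn1a at 161 ± 35.1 and Cdkn2c at 1.68 ± 0.558 CPM per kilobase. In quiescent sh4 cells Cdkn1a was at 341 ± 56.2, Cdkn2b at 16.2 ± 2.09, Cdkn2a at 14.3 ± 0.736 and Cdkn1b at 11.4 ± 1.61 CPM per kilobase. Cdkn2b and Cdkn2a overlapped in both sh4 groups, and Cdkn1c overlapped with Cdkn2d in both. Dividing by the longest coding transcript in place of all exons put Cdkn2a above Cdkn2b in the 2 sh4 groups. Of all counts on the 7 genes, Cdkn1a held 79.8 ± 4.02% in proliferating and 88.6 ± 2.87% in quiescent control cells (SD, n = 3), so the reads on this family were mostly p21 transcripts.

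**Figure D4:**
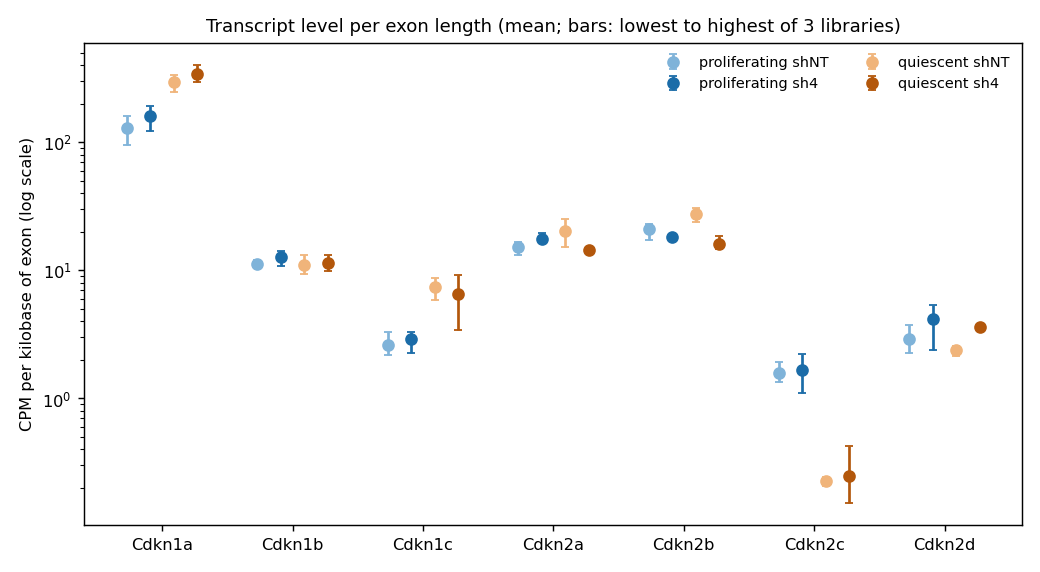
Mean level of each inhibitor gene per kilobase of annotated exon in the 4 groups, on a log axis, with bars from the lowest to the highest of 3 libraries. Cdkn1a lies above all others in each group, and Cdkn2c lies lowest in each, at 0.226 in quiescent control cells.

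For Cdkn1a, Cdkn1c and Cdkn2c, which changed in quiescent controls, the genes of most similar course over the 12 libraries were found among 10301 expressed genes. Likeness was the root mean square difference of centred log2 CPM, and the libraries share their state, so any gene with a similar change scores well. For Cdkn1a they included Sun2 (0.14) and Hcfc1r1 (0.16), with log2 fold changes in quiescent control cells of 1.08 and 1.22. For Cdkn1c they were Wnt4 (0.20), 1190007F08Rik (0.21) and Pfn2 (0.21), with changes of 1.23, 1.33 and 1.58. For Cdkn2c they were Tubb6 (0.25), Kif23 (0.27) and 4930422G04Rik (0.27), with changes of -2.72, -2.88 and -2.51; Kif23 encodes a kinesin of cell division.

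Counts in the lists below are from the fit without the replicate block, and the counts with the block are given where they differ. The targets of the inhibitors were read from a list of 9 partner cyclins and kinases. In quiescent control cells 6 of 9 fell and 1 rose, with a median log2 fold change of -1.21. Cyclin A2 (Ccna2, -4.99), the E-type cyclins Ccne2 (-4.78) and Ccne1 (-2.23), and cyclin D1 (Ccnd1, -1.80) fell most, and cyclin D2 (Ccnd2, 0.80) was the 1 that rose. In knockdown cells 5 of the 9 fell and 1 rose (6 and 2 with the block). Of 8 pocket proteins and E2F factors in control cells 4 fell and none rose (6 and 1 with the block), among them E2f2 (-5.94), Rbl1 (-2.17), E2f1 (-2.07) and E2f4 (-0.67), with a median of -0.56. E2f2 and Ccne2 were near the floor in quiescent control cells, at 0.0638 and 0.299 CPM, so the size of their falls is imprecise. All 6 proliferation markers fell, with a median of -4.47, including Top2a (-5.39) and Mki67 (-5.33).

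Genes of the ubiquitin ligases that break down Cip/Kip proteins held 3 falls and no rise in 8: Dtl (-3.91), the substrate receptor for p21, and Skp2 (-2.23) and Cks1b (-2.14), which bring p27 to its ligase; the median of the 8 was -0.17. Among 16 transcriptional regulators of inhibitor genes 1 fell, the Polycomb methyltransferase Ezh2 (-1.93), and none rose, with a median of 0.22. With the block 4 of the 16 fell and 2 rose. Of 14 p53 targets other than Cdkn1a 2 rose, Btg2 (0.82) and Bbc3 (0.54), and 12 did not pass, with a median of 0.26 (3 rose with the block). None of 4 tested targets of transforming growth factor beta passed, with a median of -0.40, and with the block 1 rose and 1 fell. Of 11 tested imprinted genes other than Cdkn1c 2 fell, Phlda2 (-2.50) and Mest (-1.99), and none rose, with a median of 0.59 (2 fell and 3 rose with the block). The block called 16.8% of tested genes as higher and 18.5% as lower for quiescence in control cells. For quiescence in knockdown cells none of the 14 p53 targets rose and 1 fell, with a median of -0.01 (1 rose and 1 fell with the block).

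Among 9 other genes that restrain CDKs, Cables1 (3.30) and the kinase gene Wee1 (1.46) rose in quiescent control cells and Cdkn3 (-5.12) and Pkmyt1 (-1.64) fell, with a median of 0.14 (3 and 3 with the block). Cables1 was near the floor in proliferating control cells, at 0.284 CPM, and Cdkn3 in quiescent ones, at 0.200 CPM. The sizes of their changes are therefore imprecise. Cdkn3 encodes a phosphatase and, despite its symbol, belongs to neither the Cip/Kip nor the Ink4 family. Of 4 tested genes read with p16 and p21 in senescent cells 3 fell, Lmnb1 (-1.54), Igfbp3 (-1.50) and Cxcl1 (-1.44), with a median of -1.47 (3 fell and 1 rose with the block). The list sets no direction for its genes, so its count and median do not measure senescence. After knockdown in quiescent cells 2 genes of all these lists passed without the replicate block, and both rose: Ccne2 from 0.299 ± 0.0996 to 2.44 ± 0.319 CPM (SD, n = 3; log2 fold change 3.01, adjusted p = 0.00530 by edgeR) and Dtl from 2.34 ± 0.177 to 6.08 ± 2.07 CPM (1.37, adjusted p = 0.0296 by edgeR). Ccne2 was near the floor with shNT, at 0.239 to 0.414 CPM, so the size of its rise is imprecise. Neither Ccne2 nor Dtl passed the interaction. With the replicate block 5 more passed by edgeR: Ccnd3 (0.79, adjusted p = 0.0343), E2f1 (0.99, adjusted p = 0.0206), E2f2 (2.70, adjusted p = 0.0386) and H19 (4.57, adjusted p = 0.00383) rose, and the ligase subunit gene Cul4a (-0.66, adjusted p = 0.0128) fell. E2f2 and H19 were near the floor here, at 0.0638 and 0.0795 CPM with shNT against 0.453 ± 0.244 and 1.94 ± 1.93 CPM with sh4. Outside the quiescent sh4 libraries H19 reached at most 0.287 CPM, so it passed the count filter only through that group. No listed gene passed after knockdown in proliferating cells, with or without the block.

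**Figure D5:**
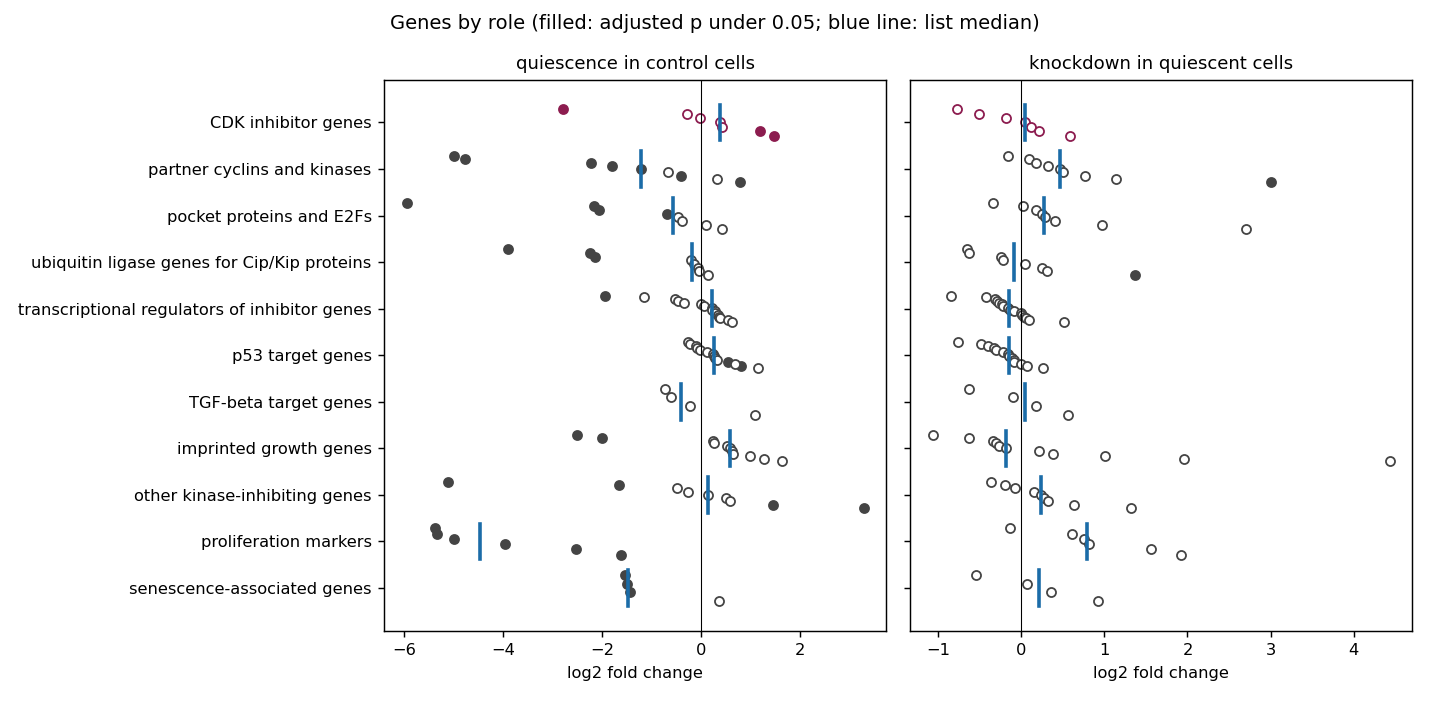
Log2 fold change of every tested gene of the 7 inhibitors and of 10 lists by role, for quiescence in control cells and for sh4 against shNT in quiescent cells; each circle is a gene, filled where the adjusted p is under 0.05, blue lines are medians, and the height within a list has no meaning. Proliferation markers lie at a median of -4.47 for quiescence, while the 7 inhibitors spread from -2.79 to 1.49.

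The nearest genes on each side, from the RefSeq table of GRCm38.p6, were also read. Next to Cdkn1b, at 3.57 kb, lies the noncoding gene listed as 1190002F15Rik. It fell with quiescence in control cells (log2 fold change -4.85, adjusted p = 0.00362) from 2.60 ± 1.06 to 0.0805 ± 0.0698 CPM (SD, n = 3), and with sh4 it also fell (-3.06, adjusted p = 0.0176), while Cdkn1b did not pass in either. In quiescent libraries 1190002F15Rik reached at most 0.417 CPM, near the floor. It passed the count filter only through the proliferating groups, so the size of its falls is imprecise. Next to Cdkn2a, Mtap fell with quiescence in control and in knockdown cells (log2 fold changes -0.74 and -0.62, adjusted p = 0.00284 and 0.00753). Faf1 next to Cdkn2c was at 56.4 ± 8.01 CPM in proliferating and 57.8 ± 3.36 CPM in quiescent control cells (log2 fold change 0.03, 95% interval -0.27 to 0.34). Gm16197 next to Cdkn1a and Slc22a18 and Kcnq1 next to Cdkn1c had log2 fold changes of 0.53, 0.66 and -0.31 in control cells that did not pass, although Slc22a18 did with the replicate block (0.70, adjusted p = 0.0124). In the annotation Cdkn1a and Cdkn1c each overlap a gene on the opposite strand that has no entry in the count table, and whether reads were counted by strand is not given in the sources used here.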

How the data were processed

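The values used are raw counts per gene symbol, deposited by the authors as whole numbers in 1 table with no scaling. The submitters' processing notes name mm10, Bowtie, TopHat, HTSeq and DESeq2, without versions or roles. Annotation and strand setting are not given in the sources used here. Per the labels' protocols, the libraries were polyadenylated RNA made with a stranded kit. The analysis used edgeR 4.0.16 in R 4.3.3. Genes were filtered by filterByExpr (minimum count 10, which kept 12406), and TMM scaling was applied. A model of 4 group means over the 12 libraries was fitted with glmQLFit. Contrasts were tested with glmQLFTest, with Benjamini-Hochberg adjustment over all tested genes and a threshold of 0.05. SEs are the log2 fold change divided by the square root of F. Log2 CPM used a prior count of 2. The test was tried on simulated counts that had no effect of experiment, so that trial does not cover data paired by experiment.

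The experiment number, which coincides with the batch in the labels, pairs the samples: deviations from group means correlated at 0.526 on average (0.225 to 0.789, 18 pairs) within an experiment and at -0.259 between experiments (36 pairs). Deviations from a group mean cancel out within the group, so the value between experiments follows from the value within them and is not separate evidence. The chi-square per degree of freedom between replicates was 36.6 to 99.7, so all were kept as separate samples. Alternatives were the replicate block, median-of-ratios and upper-quartile scaling, and DESeq2 1.42.0 with its Wald test. Further ones were other filters (none, or a minimum mean count of 50), fits restricted to the libraries of 1 contrast, and leaving out each library. Each was a single change to the main fit, so only the first used the block.

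The 7 genes, the lists by role and the cell type markers were chosen with earlier results of these data known. From each list, the text names up to 4 genes that changed most with quiescence among those called in control cells, and every gene called after knockdown; Ccnd2 was added after its value was seen, as the single gene of its list that rose, as were the 5 genes called only with the replicate block. For Cdkn1a, Cdkn1c and Cdkn2c it also names the 3 genes of most similar course, of which 1 is not reported here. Gene positions are from GENCODE M21 and RefSeq, and 2 neighbours were matched by an older symbol. Intervals of counts cover counting error only, since PCR reads are not independent molecules.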

Additional observations from a re-analysis of the deposited data

Results flagged for a closer look

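The knockdown differences of Cdkn2a had opposite signs in the 2 states, although neither effect passed the threshold by edgeR (0.21, adjusted p = 1.00, in proliferating cells and -0.51, adjusted p = 0.281, in quiescent cells). All 3 experiments were above 0 in proliferating cells and all 3 below 0 in quiescent cells, and the difference of these effects was -0.72 on the log2 scale. Such opposite signs in all 3 experiments were the rule by which Cdkn2a was flagged, so they are not further evidence. How many of all tested genes meet this rule was not counted. In each state 1 experiment was close to 0: experiment 5 in proliferating cells, at 0.03 (19.4 against 19.8 CPM, with overlapping exact Poisson intervals), and experiment 7 in quiescent cells, at -0.05. Read the other way, its change with quiescence was above 0 in all 3 experiments of control cells and below 0 in all 3 of knockdown cells, and the difference is the same -0.72, since both are the interaction. The interaction had an unadjusted p of 0.0158 and an adjusted p of 1.00 by edgeR, so it did not pass the threshold.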

How the results depend on the processing

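Of 35 log2 fold changes (7 genes in 5 contrasts), 25 kept their sign under every alternative run, 19 for each (18 for the interaction, and 1 fewer for Cdkn2c). The other 10, none of which passed the threshold, changed sign when a library was left out. Their ranges over the 12 fits without 1 library were -0.18 to 0.31 for Cdkn2c after knockdown in proliferating cells; -0.0686 to 0.193 for Cdkn1b, -0.52 to 0.12 for Cdkn1c and -0.48 to 0.36 for Cdkn2c after knockdown in quiescent cells; -0.17 to 0.10 for Cdkn1b in quiescent control cells; -0.493 to 0.013 for Cdkn2d in quiescent knockdown cells; and, for the interaction, -0.295 to 0.066 for Cdkn1a, -0.260 to 0.0017 for Cdkn1b, -0.57 to 0.28 for Cdkn2c and -0.21 to 0.29 for Cdkn2d. The number of inhibitor genes called after knockdown in quiescent cells was 0, and it was 1 with the replicate block (adjusted p of Cdkn2b 0.0290) and 1 by DESeq2. The replicate block changed no other call of these genes. The number called ranged from 2 to 4 for quiescence in control cells and from 2 to 3 in knockdown cells. No alternative scaling moved the median of all genes by over 0.0462 on the log2 scale. Cdkn2c in quiescent cells rests on 7 to 19 counts a library, which limits its precision there.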
